A study of Danio rerio with 2 samples.

Results

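The genes described here drive the cell division cycle: 41 listed genes of DNA replication and mitosis, found in the deposited table by matching its symbol column. Rows were found for 38 of the 41, among 23809 genes in the table, and all 38 had enough reads to be compared. RNA was taken from whole zebrafish embryos 3 days post fertilization in 2 groups. Embryos of the cyproconazole group were exposed from 4 hours post fertilization to 20 µM of the fungicide cyproconazole, a triazole, and those of the control group were left untreated. All embryos carried the same genotype, written as SAGFF(LF)53A mitfab692/+, so the controls too carried 1 altered copy of mitfa, which directs pigment cell development. Each group is 1 poly-A library from 1 pool of 40 embryos, with 20726375 reads in genes for cyproconazole and 18067935 for control. Without replicate libraries no difference could be set against the spread between samples, and every ratio compares these pools and not the treatments in general.

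A cell copies its genome once per cycle because origins are licensed only when Cdk activity is low. The origin recognition complex, Cdc6 and Cdt1 then load the MCM helicase, which GINS and Mcm10 help to activate as S phase begins. Cyclins with their Cdk partners order these steps, and Cdk1 with B-type cyclins, the Aurora and Polo kinases, condensin and the spindle checkpoint carry chromosomes through mitosis. In a 3-day zebrafish many cells have left the cycle, and dividing cells lie mainly in zones such as the retinal margin and the brain ventricles and in blood-forming tissue, so a whole-embryo level mixes how many cells divide with how much RNA each one holds. Fewer cells of a type and less RNA per cell cannot be told apart in such samples.

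Most of these 38 genes differed little between the libraries. Values are FPKM, which scales fragments to transcript length and to depth, and differences are of log2(FPKM + 1), cyproconazole minus control. The added 1 makes differences of low genes look smaller than they are. On that scale none of the 38 genes was at least 1.5-fold higher or lower, against 1.58% higher and 1.71% lower over 18621 genes compared. At shares this small, a set of 38 genes would hold few or none. The count therefore does not set these genes apart. The listed mcm7, whose row carries no symbol and is not counted here, was past 1.5-fold and is described below. Without the added 1, the FPKM ratio of bub1 was 1.57, beside a read ratio of 1.11. A 25% excess on log2(FPKM + 1) was passed by bub1 and bub3, and by 7.87% of all genes. Lower by that factor were 0 of the 38 and 6.55% of all genes. The median difference was 0.08 over the 38 genes, with a range of -0.28 to 0.58, and 0.02 over all genes, whose middle 50% ran from -0.11 to 0.15. Of the 38 genes, 26 lay above 0, and 54.4% of all genes did. The 13 replication genes lay higher than the rest, with a median of 0.15 and 11 above 0, while the 21 mitosis genes had a median of 0.05 with 12 above 0. A ratio of recovered reads is given beside the FPKM, with a 95% interval that covers counting error only. By that interval 10 genes lay above 1 and 3 below it, where 15.8% and 14.5% of all genes did. Read ratios above 1 were found for 26 of the 38 and for 51.7% of all genes.

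**Figure D1:**
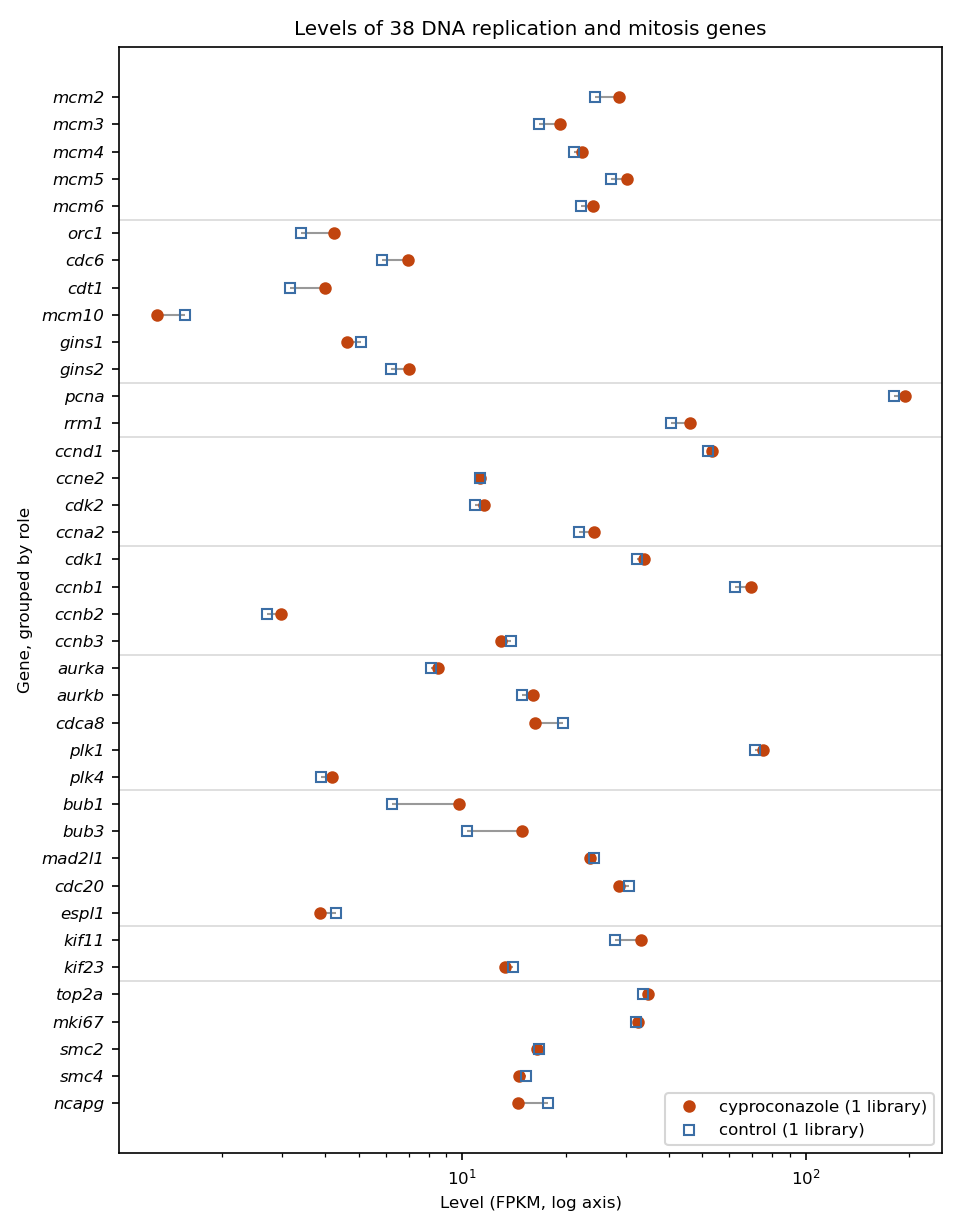
FPKM (log axis) of the 38 genes, 1 row per gene grouped by role, with a filled circle for the cyproconazole library and an open square for the control library. Levels span from mcm10 at 1.29 and 1.56 FPKM to pcna at 194 and 181 FPKM in the cyproconazole and control library, and the pair of symbols lies close together for most genes.

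The subunits of the MCM helicase, which unwinds DNA ahead of the replication fork, all lay on the same side. All 5 with a symbol were slightly higher in the cyproconazole library. The largest difference among them was that of mcm2 (ENSDARG00000102798), with 28.6 FPKM in the cyproconazole and 24.3 FPKM in the control library, from 2105 and 1572 reads and a read ratio of 1.16 (1.09 to 1.24). mcm3 had 19.3 FPKM under cyproconazole and 16.7 FPKM in control (1.14, 1.05 to 1.23). mcm5 had 30.2 FPKM under cyproconazole and 27.2 FPKM in control (log2 read ratio 0.14, interval of the ratio 1.03 to 1.18). mcm6 followed with 24.1 FPKM under cyproconazole and 22.2 FPKM in control (1.07, 1.002 to 1.15). The counting interval of mcm4 held 1, at 22.3 FPKM under cyproconazole and 21.1 FPKM in control (1.04, 0.967 to 1.13). Their reads summed to 8869 in the cyproconazole and 6979 in the control library, and the scaled ratio had an interval of 1.07 to 1.14. Levels of the 5 subunits, which enter the hexamer in equal number, lay between 19.3 and 30.2 FPKM in the cyproconazole library and between 16.7 and 27.2 FPKM in the control library.

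The MCM7 subunit stood apart. No row carries the symbol mcm7, but a reference table of gene identifiers assigns it to ENSDARG00000101180, a row without a symbol. That row had 43.9 FPKM in the cyproconazole library, above each of the other subunits, and 25.4 FPKM in the control library, within their range. Its 1070 and 585 reads in cyproconazole and control gave a ratio of 1.59 (1.44 to 1.76), whose interval lies above those of the other 5 subunits. By log2(FPKM + 1) the difference was 0.76, past 1.5-fold. The row holds few reads for its FPKM, 24.4 and 23.0 reads per FPKM in cyproconazole and control, where the other 5 subunits hold 64.0 to 78.3 under cyproconazole and 56.2 to 68.8 in control. How its gene model and read counting bear on the ratio was not tested. In the same way the table names ENSDARG00000078654 as tpx2, which targets Aurora A to the spindle. It had 39.6 FPKM under cyproconazole and 35.9 FPKM in control, with a read ratio of 0.976 (0.912 to 1.05). These identified rows are kept out of the counts over 38 genes, and birc5a, the survivin of the chromosomal passenger complex, was not analysed here.

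**Figure D2:**
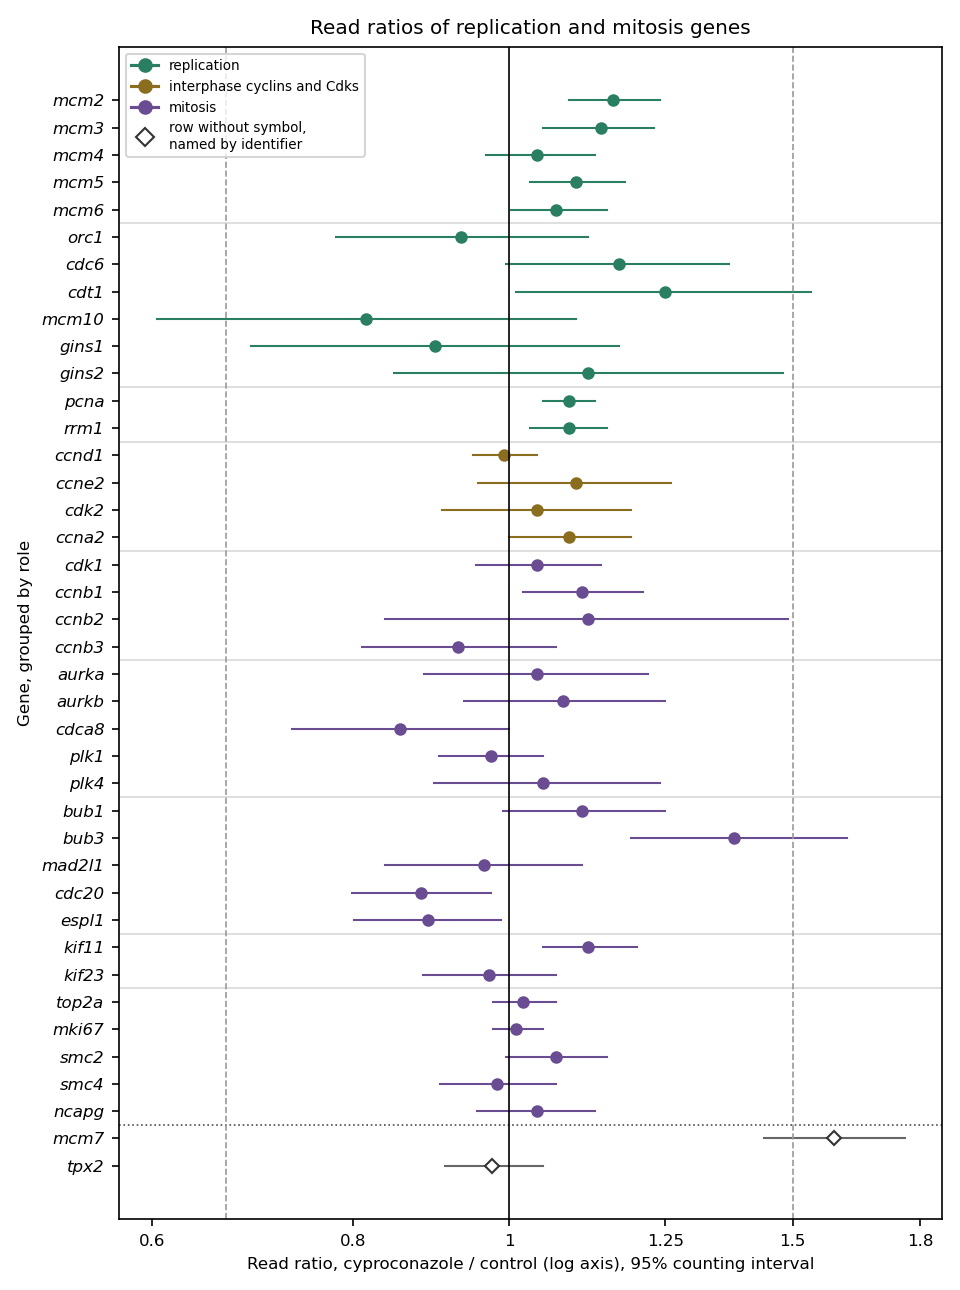
Read ratio, cyproconazole over control (log axis), of the 38 genes by role, with the 95% counting interval as a line and dashed lines at 1.5-fold in either direction. The genes mcm2 to mcm6, pcna and rrm1 lie right of 1, and bub3 is the highest of the 38 at 1.38. mcm7 and tpx2, named by identifier, stand below the dotted line at 1.59 and 0.976.

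Genes of origin licensing and firing were low and did not all lie on the same side of 1. The licensing factor cdt1 had 3.99 FPKM in the cyproconazole library and 3.15 FPKM in the control library, from 218 and 152 reads (log2 read ratio 0.32, interval of the ratio 1.01 to 1.54). Its partner cdc6, which loads the helicase with it, had 6.95 FPKM under cyproconazole and 5.83 FPKM in control (1.17, 0.996 to 1.37). The interval of cdt1 lay just above 1 and that of cdc6 just held it. For orc1, the largest subunit of the origin recognition complex, FPKM and reads disagreed, with 4.25 FPKM under cyproconazole and 3.39 FPKM in control but a read ratio of 0.934 (0.781 to 1.12). The helicase activator mcm10 was the lowest of all 38 genes, at 1.29 FPKM under cyproconazole and 1.56 FPKM in control, from 90 and 96 reads (0.815, with an interval that held 1). The GINS subunit gins1 had 4.62 FPKM under cyproconazole and 5.09 FPKM in control (0.899, 0.691 to 1.17), and gins2 had 7.02 FPKM under cyproconazole and 6.22 FPKM in control (1.12, 0.848 to 1.48). With 90 to 121 reads per library for these 3 genes, a difference of this size was not detectable at this depth.

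The sliding clamp gene pcna and the ribonucleotide reductase gene rrm1 complete the replication group. Both are abundant and both lay a little above 1. pcna had 194 FPKM in the cyproconazole library and 181 FPKM in the control library, from 6261 and 5009 reads (read ratio 1.09, 1.05 to 1.13). rrm1, the large subunit of the enzyme that makes deoxynucleotides, had 46.0 FPKM under cyproconazole and 40.6 FPKM in control (1.09, 1.03 to 1.15). pcna, widely used as a marker of proliferating cells, was the highest of the 38 genes in both libraries.

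Cyclins and Cdks that act before mitosis were nearly equal between the libraries. The G1 cyclin gene ccnd1, also known as a marker of retinal progenitors in zebrafish, had 53.2 FPKM under cyproconazole and 52.1 FPKM in control, from 4031 and 3527 reads (read ratio 0.993, 0.949 to 1.04). The cyclin E gene ccne2, which with Cdk2 starts S phase, was listed at 11.3 FPKM in each library, with 477 reads under cyproconazole and 378 in control (interval of the ratio 0.956 to 1.26). Its partner cdk2 had 11.6 FPKM under cyproconazole and 10.9 FPKM in control (1.04, 0.909 to 1.19). ccna2, the cyclin A of S phase and early mitosis, had 24.2 FPKM under cyproconazole and 21.9 FPKM in control (1.09, 0.9995 to 1.19). The counting interval held 1 for all 4 genes. The ratios of ccne2 and ccna2 were near the 1.09 of pcna and rrm1, which have more reads and narrower intervals.

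The mitotic kinase cdk1 had 33.9 FPKM in the cyproconazole library and 32.2 FPKM in the control library (read ratio 1.04, 0.954 to 1.14). Its B-type cyclins differed widely in level and little between the libraries. ccnb1, the most abundant, had 69.4 FPKM under cyproconazole and 62.1 FPKM in control, from 1250 and 976 reads (1.11, 1.02 to 1.21). ccnb3 had 13.0 FPKM under cyproconazole and 13.9 FPKM in control (0.929, 0.810 to 1.07). ccnb2 was low, at 2.97 FPKM under cyproconazole and 2.71 FPKM in control (1.12, 0.837 to 1.49). The interval lay above 1 for ccnb1 and held 1 for the others.

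Among the kinases of mitosis, plk1, the Polo kinase that acts from mitotic entry to cytokinesis, was the highest mitosis gene, with 75.0 FPKM in the cyproconazole library and 71.4 FPKM in the control library (read ratio 0.974, 0.905 to 1.05). plk4, which controls centriole duplication, had 4.18 FPKM under cyproconazole and 3.89 FPKM in control (1.05, 0.898 to 1.24). The spindle pole kinase aurka had 8.49 FPKM under cyproconazole and 8.13 FPKM in control (1.04, 0.885 to 1.22). Intervals of these genes held 1. Of the chromosomal passenger complex, which corrects faulty attachments of chromosomes, the kinase gene aurkb had 16.1 FPKM under cyproconazole and 14.9 FPKM in control, a ratio of 1.08 whose interval held 1. The borealin gene cdca8 had 16.3 FPKM under cyproconazole and 19.7 FPKM in control, from 331 and 336 reads (0.856, 0.733 to 0.9996). The inner centromere subunit incenp, outside the 38 and named after its value was seen, had 18.7 FPKM under cyproconazole and 15.4 FPKM in control, with a read ratio of 1.20 and an interval above 1. Reads summed over these 3 subunits, 1974 under cyproconazole and 1559 in control, gave a scaled ratio with an interval of 1.03 to 1.18. Of these reads incenp held 1214 under cyproconazole and 879 in control, so the sum mostly reflects incenp. The 3 subunits did not lie on the same side of 1, and birc5a is missing from the sum.

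The spindle checkpoint and the genes it restrains held the highest read ratio of the 38 and 2 of the 3 with an interval below 1. bub3, which brings Bub1 and BubR1 to kinetochores, was the highest, with 14.9 FPKM under cyproconazole and 10.3 FPKM in control, from 433 and 272 reads (1.38, 1.19 to 1.62). bub1, its kinase partner, had the largest FPKM difference, at 9.82 FPKM under cyproconazole and 6.25 FPKM in control, but its 683 and 534 reads gave only 1.11, with an interval that held 1. The checkpoint effector mad2l1 had 23.5 FPKM under cyproconazole and 24.2 FPKM in control (0.964, 0.837 to 1.11). In this group the genes with intervals below 1 were cdc20 and espl1, which act once the checkpoint is released. The other such gene of the 38, cdca8, belongs to the chromosomal passenger complex. cdc20, the activator of the anaphase-promoting complex, had 28.6 FPKM under cyproconazole and 30.7 FPKM in control (0.882, 0.799 to 0.974). espl1, the separase that cuts cohesin, had 3.86 FPKM under cyproconazole and 4.30 FPKM in control (0.890, 0.801 to 0.989). Both intervals lay below 1.

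The spindle motor kif11, a kinesin that pushes spindle poles apart, had 33.2 FPKM in the cyproconazole library and 27.8 FPKM in the control library, from 2286 and 1770 reads (read ratio 1.12, 1.05 to 1.20). kif23, a kinesin of the central spindle, had 13.3 FPKM under cyproconazole and 14.1 FPKM in control (0.971, 0.884 to 1.07). The 5 genes of chromosome structure had read ratios between 0.983 and 1.07. mki67, which coats mitotic chromosomes and marks cycling cells, had 32.6 FPKM under cyproconazole and 32.0 FPKM in control, from 6835 and 5869 reads, the most of any of the 38 genes (1.01, 0.977 to 1.05). top2a, the topoisomerase that untangles sister DNA, had 34.8 FPKM under cyproconazole and 33.7 FPKM in control (1.02, 0.977 to 1.07). Their intervals were among the narrowest of the 38 and held 1. Of condensin, which compacts chromosomes, smc2 had 16.5 FPKM under cyproconazole and 16.7 FPKM in control (1.07, 0.995 to 1.15), and smc4 had 14.6 FPKM under cyproconazole and 15.3 FPKM in control (0.983, 0.906 to 1.07). ncapg, a condensin I subunit, had 14.5 FPKM under cyproconazole and 17.8 FPKM in control, while its reads gave 1.04 (0.955 to 1.13).

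Set side by side, replication genes lay above mitosis genes by 0.11 in the median log2(FPKM + 1) difference and by 0.07 in the median log2 read ratio. Summed reads gave 1.09 (1.07 to 1.12) for the 13 replication genes and 1.02 (1.01 to 1.04) for the 21 mitosis genes, in which mki67 and top2a weigh most. In the replication sum the 5 MCM genes, pcna and rrm1 weigh most. The 6 genes of origin licensing and firing held 1175 of its 19284 reads under cyproconazole and gave 1.05 (0.964 to 1.15). Read ratios were above 1 for 3 of these 6 and below 1 for 3. Their median was 0.03 by log2 read ratio, beside 0.05 for mitosis genes, but 0.19 on log2(FPKM + 1). The counting interval lay above 1 for 7 of 13 replication genes (53.8%) and below 1 for 0 of them. It lay above 1 for 3 and below 1 for 3 of 21 mitosis genes, 14.3% on each side. Of all genes 15.8% lay above 1 and 14.5% below, so the mitosis genes were near the shares of all genes. Deep genes have narrow intervals, and among all genes with at least 1000 reads 22.7% lay above 1 and 21.0% below. Of the 22 members with at least 1000 reads, 8 lay above 1 and 2 below it. The ranges of both classes overlapped, from -0.16 to 0.26 for replication and from -0.28 to 0.58 for mitosis genes on log2(FPKM + 1).

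**Figure D3:**
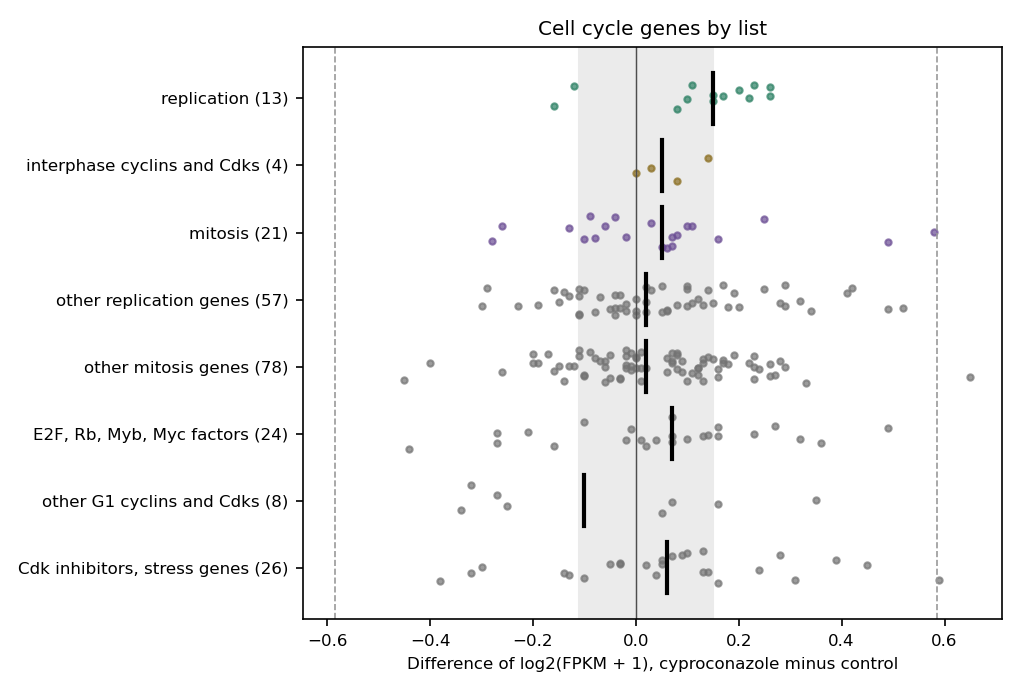
Difference of log2(FPKM + 1), cyproconazole minus control, for each gene (points) of the replication, interphase and mitosis genes and of 5 further lists, with the number of genes in brackets, the median as a bar, the middle 50% of all genes in grey and dashed lines at 1.5-fold. The replication genes have a median of 0.15, the 57 other replication genes 0.02 and the 78 other mitosis genes 0.02.

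For most of the 38 genes FPKM and reads gave nearly the same ratio, but for 3 the log2 ratios were at least 0.2 apart, as they were for 9.11% of all genes. These were orc1, bub1 and ncapg. bub1 was higher by both measures but by less in reads. orc1 was higher by FPKM beside a read ratio of 0.934, and ncapg was lower by FPKM beside a read ratio of 1.04. Read ratio and FPKM difference lay on opposite sides of no difference for orc1, ccnd1, ccne2, plk1, smc2 and ncapg, so no direction can be given for these 6 genes. Reads per FPKM show the same split, with 69.5 under cyproconazole and 85.4 in control for bub1. The transcript models behind the FPKM were not analysed here.

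**Figure D4:**
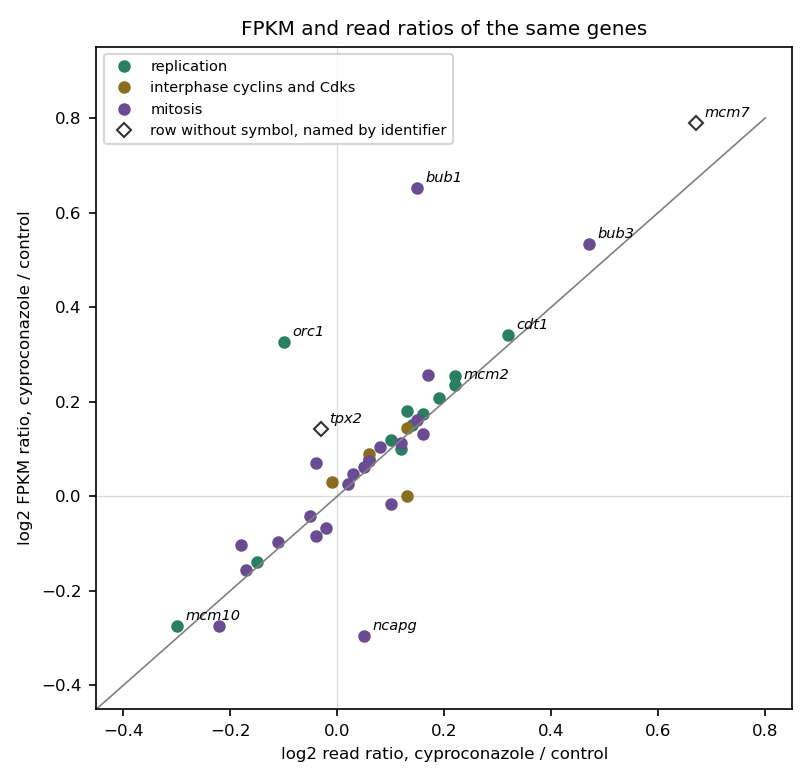
log2 ratio of FPKM against log2 ratio of recovered reads, cyproconazole over control, 1 point per gene, with the line of equal ratios. Most genes lie along the line, with bub1 and orc1 above it and ncapg below it, and mcm7 lies near the line at the upper right.

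The replication genes outside the 38 lay at the median of all genes. Of 57 other replication genes, 33 lay above 0 on log2(FPKM + 1) and 24 below, with a median of 0.02 and 0 at least 1.5-fold apart. The counting interval lay above 1 for 4 and below 1 for 4 of them, 7.02% on each side, where 15.8% and 14.5% of all genes did. The highest was orc5, an origin recognition subunit, with 4.50 FPKM under cyproconazole and 2.84 FPKM in control, from 179 and 98 reads (1.59, 1.23 to 2.05). dut, which keeps uracil out of DNA, had 91.6 FPKM under cyproconazole and 68.3 FPKM in control (1.33, with an interval above 1). By the interval bound nearest to 1, the lowest included dnmt1, which copies DNA methylation behind the fork. It had 16.8 FPKM under cyproconazole and 18.4 FPKM in control (0.900, 0.846 to 0.957). Lower ratios with wider intervals were also found, such as 0.788 (0.583 to 1.06) for gins3. cdc45, part of the active helicase, had 3.70 FPKM under cyproconazole and 4.37 FPKM in control (0.861, 0.705 to 1.05). A pair of rows carries the symbol rrm2, the small subunit of ribonucleotide reductase, and they lay apart, at 1.29 (1.15 to 1.45) for ENSDARG00000020711 and 0.766 (0.620 to 0.946) for ENSDARG00000078069. Near-identical copies can split reads, so neither rrm2 value is certain. All 70 replication genes together had a median of 0.06, with 44 above 0.

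By complex, the summed reads of MCM2-6 lay above 1, as given above, and those of the nucleotide enzymes gave 1.11 (1.07 to 1.16). The 8 rows of these enzymes include rrm1 and both rows of rrm2. Intervals lay above 1 for 3 of the 8 (rrm1, dut and 1 rrm2 row), below 1 for 1 and held 1 for 4. Summed intervals above 1 were also found for the origin recognition complex (1.09, 1.005 to 1.17), the spindle checkpoint (1.05, 1.01 to 1.09) and condensin (1.04, 1.01 to 1.08). In that order, 5 of 6, 8 of 10 and 7 of 8 single-gene intervals held 1. On log2(FPKM + 1), 5, 4 and 4 of their genes lay above 0 and 1, 6 and 4 below. The summed FPKM of condensin was slightly lower under cyproconazole, 87.4 beside 88.7 in control. The clamp loader, the polymerases and RPA lay at 1 within counting error. The intervals of the clamp loader, polymerase epsilon and RPA overlapped that of the clamp gene pcna, 1.05 to 1.13. Summed reads gave 1.02 (0.968 to 1.08) for the clamp loader replication factor C, 0.983 (0.921 to 1.05) for polymerase alpha-primase, 0.978 (0.908 to 1.05) for polymerase delta and 1.02 (0.944 to 1.11) for polymerase epsilon. The single-strand binding protein RPA had 1.01 (0.960 to 1.07), with rpa2, named after its value was seen, at 1.14 and an interval above 1. Of 78 other mitosis genes, 44 lay above 0 with a median of 0.02. By counting interval 13 lay above 1 (16.7%) and 5 below it (6.41%), where 15.8% and 14.5% of all genes did. The group of 12 mitotic kinesins is not wholly within these 78 genes, since it includes kif11 and kif23, described above. Of the 12, 5 intervals lay above 1, that of kif11 among them, and 1 below. Their summed reads, 10409 under cyproconazole and 8241 in control, gave a scaled ratio with an interval of 1.07 to 1.13. Of these reads kif11 held 2286 under cyproconazole and 1770 in control. The group leaves out cenpe, at a read ratio of 0.993 (0.931 to 1.06). kif18a, which dampens chromosome movement, had 3.09 FPKM in each library but a read ratio of 1.44 (1.17 to 1.79), and kif22, a chromosome-bound kinesin, had 16.3 FPKM under cyproconazole and 13.7 FPKM in control (1.22, with an interval above 1). The 1 gene of this list past 1.5-fold was kif15, singled out after its value was seen, with 9.58 FPKM under cyproconazole and 5.73 FPKM in control but a read ratio of 1.23, whose interval lay above 1. By the interval bound nearest to 1, the lowest were ect2, which starts the cytokinetic furrow, at 0.818 (0.701 to 0.956), and the kinetochore scaffold casc5 at 0.867 (0.786 to 0.956). The ratio of cenpp was lower, at 0.785, but its interval held 1 (0.537 to 1.15). Cohesin, with 7 genes, gave 1.003 (0.984 to 1.02).

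**Figure D5:**
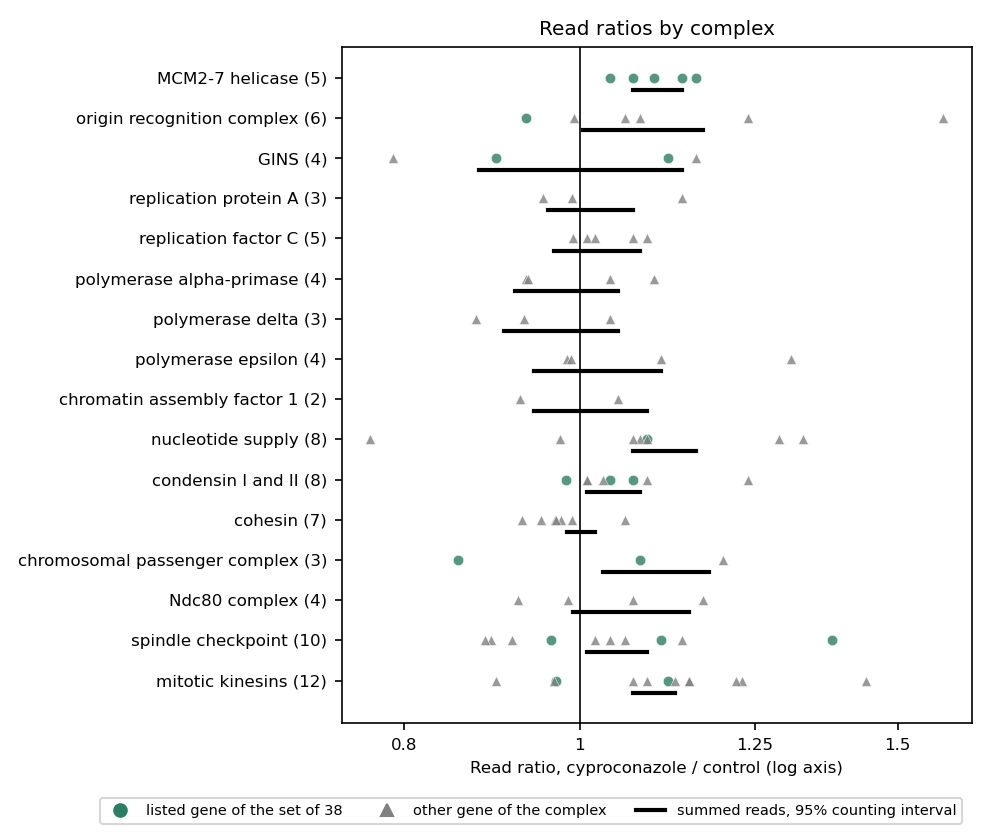
Read ratio, cyproconazole over control (log axis), of each gene of 16 complexes or functional groups, with the number of genes in brackets. Circles are genes of the set of 38, triangles other genes, and the bar below each row is the 95% counting interval of the summed reads, which lies right of 1 for, among others, MCM, nucleotide supply and mitotic kinesins and holds 1 for replication factor C, the polymerases and cohesin.

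Regulators of the cycle lay on both sides of no difference. The E2F, Rb, Myb and Myc list of 24 genes had a median of 0.07, with 16 above 0 and 0 at least 1.5-fold apart. The growth regulators myca and mycb had 21.1 and 19.6 FPKM under cyproconazole and 14.8 and 15.0 FPKM in control, and ratios of 1.41 (1.27 to 1.57) for myca and 1.29 (1.15 to 1.44) for mycb. e2f1, which switches on replication genes, had 89 and 55 reads in cyproconazole and control (1.41, 0.994 to 2.01). foxm1 and mybl2b, activators of mitotic genes, lay at 1.02 (0.873 to 1.18) for foxm1 and 1.07 (0.911 to 1.26) for mybl2b. The lowest were mybl1, a Myb gene best known from male germ cells in mice, with 225 reads under cyproconazole and 311 in control (read ratio 0.629, 0.527 to 0.749), and lin52 of the DREAM complex at 0.763 (0.601 to 0.966). Of 8 other G1 cyclin and Cdk genes, cdk4 lay at 1.19 (1.03 to 1.38) and cdk7 at 1.07 (0.927 to 1.24), ccnh at 0.761 (0.615 to 0.940) and ccnd2b at 0.821 (0.655 to 1.03), and the list had a median of -0.10 on log2(FPKM + 1) but 0.06 by log2 read ratio.

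The list of Cdk inhibitors and stress response genes, 26 genes, had a median of 0.06 with 17 above 0. By counting interval 7 lay above 1 (26.9%) and 4 below it (15.4%), where 15.8% and 14.5% of all genes did. The 1 gene of the list past 1.5-fold was cdkn1a, the p21 inhibitor of Cdks, with 3.10 FPKM under cyproconazole and 1.72 FPKM in control. It had only 70 and 34 reads in cyproconazole and control (1.79, 1.17 to 2.78). Named after their values were seen, the inhibitor genes cdkn1ba and cdkn1bb lay at 1.22 (1.07 to 1.39) and 1.20 (1.11 to 1.30). In the same way cdkn1ca lay at 1.19 (1.06 to 1.34), while the intervals of cdkn1cb and cdkn2c held 1. Other genes of the DNA damage response did not all lie on the side of cdkn1a. The ubiquitin ligase gene mdm2 had 27.2 FPKM under cyproconazole and 33.6 FPKM in control (0.903, 0.824 to 0.988), and the cyclin G gene ccng1, with 17374 and 15127 reads in cyproconazole and control, had 0.998 (0.977 to 1.02). The stress gene sesn2 lay at 1.42 (1.17 to 1.73). The lowest were cdkn1d, a zebrafish Cip/Kip inhibitor, with 14.9 FPKM under cyproconazole and 19.7 FPKM in control (0.742, 0.697 to 0.791), and gadd45ba at 0.781 (0.672 to 0.907).

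Markers of some cell types that hold dividing cells, or border on them, differed between the libraries. All 13 red blood cell marker rows lay above 0, with 3 past 1.5-fold, and the summed FPKM of the list was 9026 under cyproconazole and 7208 in control (summed read ratio 1.26, 1.24 to 1.28). Globin rows held most of these reads, hbae3 alone 30584 of 58092 under cyproconazole (read ratio 1.20). The 13 rows carry 11 symbols, and their median read ratio was 1.39. Of 15 neural progenitor marker rows 11 lay above 0 and 0 past 1.5-fold, with a summed read ratio of 1.13 (1.11 to 1.15). Most of that excess came from gfap, singled out after its value was seen, with 11660 reads under cyproconazole and 7410 in control. Without it the summed ratio over 14 rows was 1.02 (0.998 to 1.04), with read ratios of single rows from 0.917 to 1.44. In that sum fabp7a, at 0.983, held 11255 of 18508 reads under cyproconazole, so the sum mostly reflects fabp7a. The median read ratio of the 14 rows was 1.11, with 11 above 1 and 3 below. Their counting intervals lay above 1 for 3 rows, below 1 for 1 and held 1 for 10. For the retinal ciliary margin 2 of 9 lay above 0, with a summed ratio of 0.907 (0.878 to 0.938), and for neurons 4 of 10, with 0.977 (0.963 to 0.991). All 7 cartilage markers lay below 0, 4 of them past 1.5-fold, with a summed FPKM of 736 under cyproconazole and 1447 in control (summed ratio 0.553, 0.548 to 0.557). Blood progenitor and lymphoid markers had 4 genes with enough reads, 2 of them above 0, and a summed ratio of 0.954 (0.856 to 1.06). Germ cell markers were near 0, with a summed 1.12 FPKM under cyproconazole and 1.21 FPKM in control over 2 genes with enough reads (1.18, 0.833 to 1.69). No marker of these lists was at 0 reads in either library. The part of red blood cells, neural progenitors and cartilage in the ratios of the replication genes was not tested.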

How the data were processed

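The authors deposited 1 table that gives an FPKM value per gene for each of the 2 libraries, per the file headers. Beside it stand the mean normalized count of both libraries (a signal, divided by size factors) and the deposited comparison with a log2 ratio, its standard error, a score (their quotient) and an unadjusted p-value, per the file headers. With 1 library per group these p-values were not used. Per the submitters' processing notes the build was GRCz10, and the tools named, with no roles, were Cufflinks 2.1.1, HTSeq 0.6.1, Picard 1.29, TopHat2 2.0.4 and SAMtools. Nothing on annotation or strand was given in the sources used here, so overlapping genes and close paralogs may share reads.

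The planned difference of log2(FPKM + 1) was computed with no test. Whole reads were recovered for 23790 genes (99.9%). Every mean count is a whole multiple of 1 step within 0.01 of it, and a control and a cyproconazole read are worth 68 and 59 steps. Of the possible pairs of reads, the one was kept whose negative binomial fit with a zero-centred normal prior matched the deposited standard error within 1e-05, provided that the runner-up was over 10 times farther off. Only 7180 genes have a single possible pair, so the others rest on this model. The recovery was tested on simulated data made with the same model, where all 2000 genes were given their true pair. To scale read ratios, a trimmed mean of M values was used (30% and 5% trimmed), which lay 0.004 from total reads on the log2 scale. Intervals are exact Clopper-Pearson ones at 95% and cover counting error only, as there is 1 library per group. The reads carry no molecular identifiers, so copies of the same fragment could not be told apart and the intervals may be too narrow. Genes with under 50 reads over both libraries were left out, as were 12 with an FPKM of 0 despite that many reads. Python 3.11.15, NumPy 2.4.6, pandas 2.3.3, SciPy 1.17.1 and matplotlib 3.10.9 were used.

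Members, lists, roles and complexes were chosen with earlier results of these data known. All members were named, and of each further list the 2 highest and 2 lowest by the interval bound nearest to 1, plus 9 genes always named, of which 1 is not reported here. Marker lists were those of neural progenitors, the retinal margin, neurons, red blood cells, blood progenitors and lymphoid cells, cartilage and germ cells. A planned search for promoter motifs was not run, since no sequences were used here.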

Additional observations from a re-analysis of the deposited data

How the results depend on the processing

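No paired analysis was possible because there is only 1 library on either side, so none could be left out in turn either. Medians were recomputed with 0.1 or 5 FPKM added, no minimum or 200 reads, 3 scalings of recovered reads and centring on the median of all genes. They ranged from 0.06 to 0.08 for the 38 genes, 0.12 to 0.17 for replication and 0.03 to 0.06 for mitosis genes. Ranges were 0.03 to 0.10 for interphase, 0.00 to 0.03 for other replication and -0.01 to 0.06 for other mitosis genes. All stayed within the tolerance used, the median half-width of single-gene counting intervals, 0.14 for the 38 genes. That tolerance exceeds their median of 0.08, so it could not have shown a loss of the difference. The difference of the 2 class medians, replication minus mitosis, ranged from 0.07 to 0.13, with other class borders run as well. The count of the 38 genes at least 1.5-fold higher, 0, was 1 (bub1) with 0.1 FPKM added and 2 at a threshold of 25% higher. It was 1 with the rows of mcm7 and tpx2, an alternative chosen after the data were seen. The count lower stayed at 0. Counting intervals above 1 numbered 10, or 11 with total reads and 9 with the deposited size factors, and those below 1 3, 2 and 3. Over all genes, 295 higher and 318 lower became 596 and 620 with 0.1 FPKM added, 69 and 126 with 5 FPKM added, 533 and 582 by recovered reads scaled as in the report, 537 and 573 with total reads, 524 and 588 with the deposited size factors, 1465 and 1220 at the 25% threshold, 50 and 83 at 2-fold, 474 and 464 without a minimum, and 172 and 214 with 200 reads. By recovered reads the values of bub1, ncapg, orc1, plk1 and smc2 moved beyond their counting error; the cause was not tested.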
